A study of Mus musculus with 4 samples.

Results

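The genes described here are 29 genes of the peroxisome and of plasmalogen synthesis, picked by name from the 35869 gene rows of an RNA sequencing table, and all 29 had a row of their own. The table covers oligodendrocytes, the myelin-forming glia of the brain, sorted from mouse cortex at postnatal day 5 as cells positive for O4 and GalC, lipid antigens of the oligodendrocyte surface. There were 4 libraries, 2 labelled wild type (WT 1 and WT 2) and 2 from Zfp488KI/KI mice, which carry a knock-in on both copies of Zfp488 and are labelled Zfp488 KO (KO 1 and KO 2). Zfp488 encodes a zinc finger protein of the oligodendrocyte lineage, and the study concerns the timing of myelination. No Cre driver, strain or further allele is named in the labels, and nothing says whether libraries came from separate animals, so errors and p-values cover no more than the scatter of the 4 libraries, part or all of which may be technical. Where 2 values are given for a genotype, library 1 comes before library 2.

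Peroxisomes are organelles bounded by one membrane that shorten very long-chain and branched fatty acids and break down hydrogen peroxide. They also carry out the first steps of the synthesis of plasmalogens, the ether phospholipids in which myelin is rich. Their proteins are made in the cytosol and brought in by the peroxins, encoded by the Pex genes, and inherited loss of peroxins or of plasmalogen enzymes causes disease of white matter.

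Values are FPKM, sequenced fragments scaled to transcript length and to the mapped total of the library, so levels can be set side by side between genes as far as the transcript lengths used were right. They summed to between 311846 and 341145 per library. The reads behind them, and so the depth, are unknown here. Zfp488 itself gave 6.61 and 5.29 FPKM in WT against 4.82 and 4.11 FPKM in KO, a log2 difference of -0.34 (SE 0.33) with a limma adjusted p of 0.950. The oligodendrocyte label held, with Cnp at 440 and 261 FPKM in WT against 309 and 151 FPKM in KO, although Aspa, a gene of mature oligodendrocytes, was listed at 0 in all 4 libraries. Myelinating markers summed to 810 and 505 FPKM in WT and to 532 and 250 FPKM in KO. Precursor markers summed to 375 and 289 FPKM in WT and to 484 and 328 FPKM in KO. For each list the sums of the genotypes overlapped. Of the 10 myelinating markers tested, 6 had each KO value under the lower WT value, against 18.3% of all tested genes. Of 8 precursor markers, 5 had each KO value over the higher WT value, against 16.6% of all tested genes. Groups overlapped for Gpr17, Vcan and Neu4, the remaining precursor markers, with log2 differences of -0.03, -0.02 and -0.34. These lists mark the stage of the cells, and their part in the differences given below was not tested. In bulk samples, fewer cells of a type and less RNA per cell cannot be told apart.

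No peroxisome or plasmalogen gene passed the test between genotypes. Of the 29 genes, 24 reached 1 FPKM in at least 2 libraries and were tested. Of these, 0 had an adjusted p under 0.05 (limma, Benjamini-Hochberg over 10754 genes; adjusted p between 0.859 and 0.998), against 0% of all tested genes. A single member, Hsd17b4, had an unadjusted p under 0.05, where 5.65% of all tested genes did. Both KO libraries lay above both WT libraries for 5 of the 24 (20.8%, against 16.6% of all tested genes) and below for 3 (12.5%, against 18.3%), so the shares stood near the background. With the libraries rescaled to a common sum (TPM) the counts were 9 above and 0 below, with 21.7% and 13.1% of all tested genes. On the log2(FPKM + 1) scale the median difference of KO minus WT was 0.081 over the 24 genes and 0.0001 over all tested genes. The median size of the difference, without its sign, was 0.269 in the 24 and 0.271 in all. On this scale the change of genes at low FPKM is understated.

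**Figure D1:**
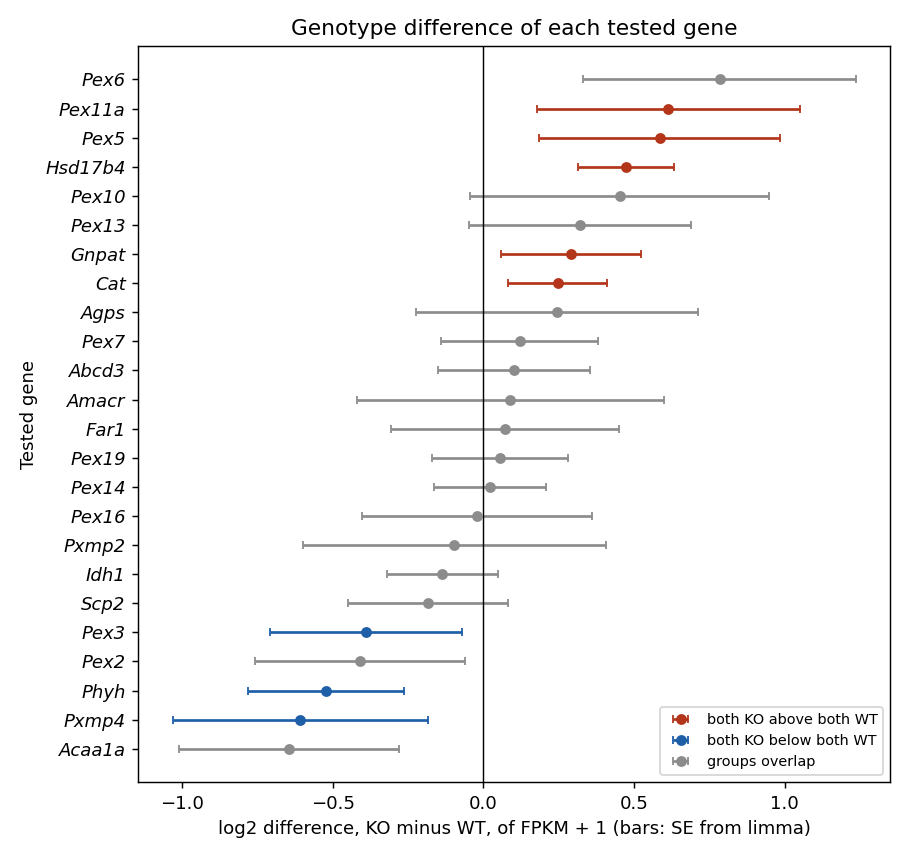
Log2 difference of KO minus WT on the log2(FPKM + 1) scale for the 24 tested genes, with bars of 1 SE from limma; colours mark genes whose 2 KO libraries lay above or below both WT libraries. Differences ran from -0.65 (Acaa1a) to 0.78 (Pex6), and those 2 ends belonged to genes whose groups overlapped.

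The members spanned from almost no listed expression to 109 FPKM (Hsd17b4 in KO 1). The mean over the 4 libraries was highest for Hsd17b4 (90.6 FPKM), Idh1 (84.5 FPKM) and Cat (84.1 FPKM), whose ranges over libraries overlapped. A second group, Phyh (54.4 FPKM), Scp2 (54.2 FPKM), Gnpat (50.6 FPKM), Pex14 (49.5 FPKM) and Acaa1a (45.9 FPKM), also could not be put in order beyond the spread of its libraries. Abcd3 followed at 29.4 FPKM and Pex19 at 23.4 FPKM, and the remaining tested genes had means between 2.06 FPKM (Pex11a) and 17.7 FPKM (Pex10). Pex14 was the peroxin with the highest mean.

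**Figure D2:**
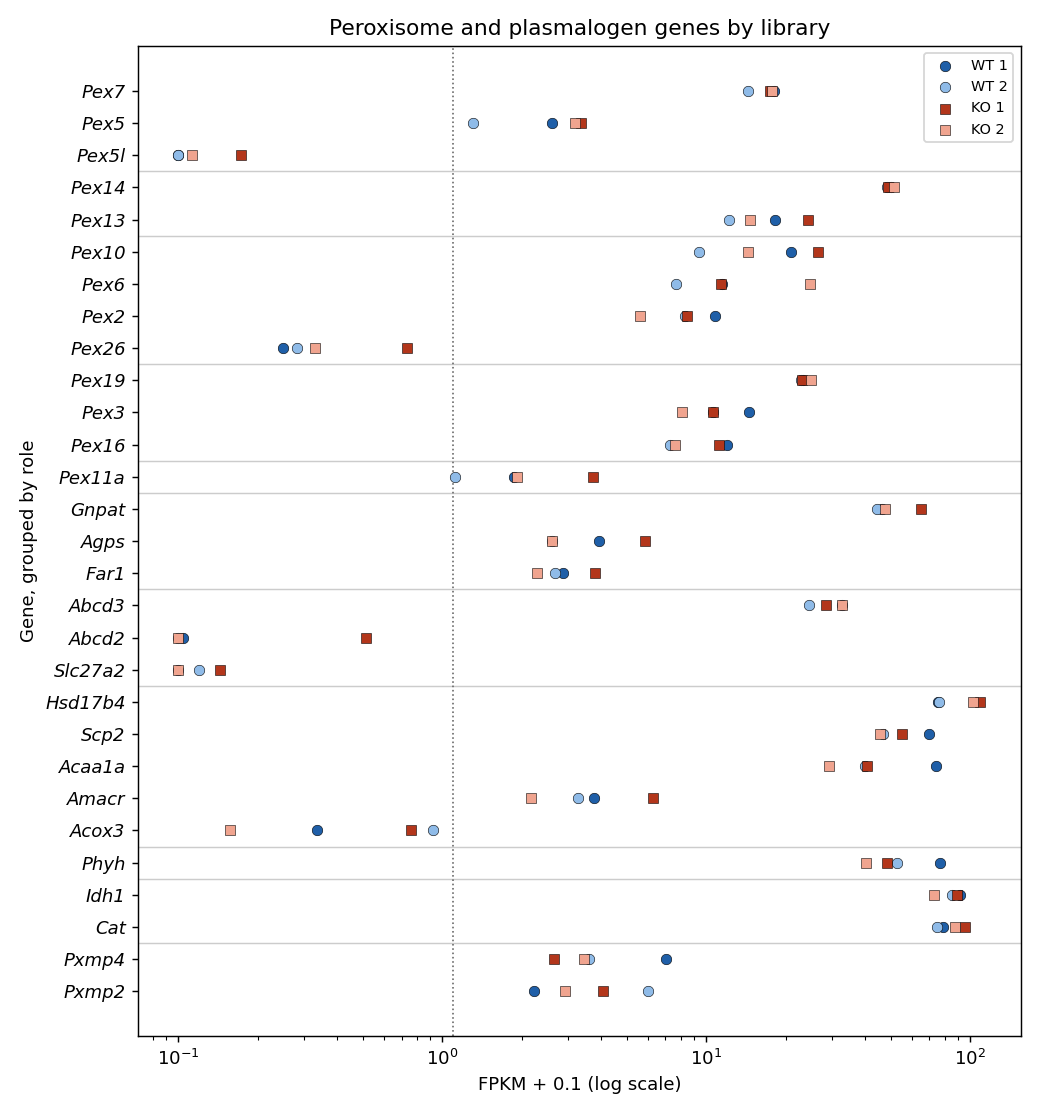
FPKM + 0.1 on a log axis for all 29 genes in each of the 4 libraries (circles WT, squares KO), in blocks by role; the dotted line marks 1 FPKM. Hsd17b4, Cat and Idh1 lie farthest right, and Pex26, Pex5l, Acox3, Abcd2 and Slc27a2 lie below 1 FPKM in every library.

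Among the receptors that fetch proteins into the peroxisome, the minor route had the higher transcript level. Pex7, the receptor for the less common targeting signal, which the plasmalogen enzyme Agps carries, gave 18.0 and 14.3 FPKM in WT against 17.4 and 17.7 FPKM in KO (log2 difference 0.12, SE 0.26). Pex5, the receptor for the signal at the end of most matrix enzymes, gave 2.51 and 1.20 FPKM in WT against 3.26 and 3.09 FPKM in KO (0.58, SE 0.40). Pex7 thus stood 5.34 to 11.9 times above Pex5 in each library, while both KO libraries lay above both WT libraries for Pex5 and the groups overlapped for Pex7. The difference of Pex5 was 0.25 without WT 2 and 0.92 without WT 1. Pex5l, a relative of Pex5 known for its action on neuronal ion channels, was listed at 0 in both WT libraries and at 0.072 and 0.013 FPKM in KO.

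The docking complex was expressed unevenly too. Pex14, at which loaded receptors dock, varied little between libraries, at 49.9 and 48.3 FPKM in WT against 48.5 and 51.4 FPKM in KO (0.02, SE 0.18). An antisense gene, Gm17029, overlaps 28.3% of its exon bases. Pex13, its partner in the membrane, gave 18.1 and 12.1 FPKM in WT against 24.2 and 14.5 FPKM in KO (0.32, SE 0.37), with overlapping groups. The level of Pex14 was 2.01 to 3.98 times that of Pex13 in each library.

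Genes that recycle the receptors differed between single libraries of one genotype. Pex10, a RING ubiquitin ligase, gave 20.8 and 9.30 FPKM in WT against 26.5 and 14.3 FPKM in KO (0.45, SE 0.50), so that each genotype had one high and one low library. Pex2, a ligase of the same complex, gave 10.7 and 8.18 FPKM in WT against 8.37 and 5.49 FPKM in KO (-0.41, SE 0.35), with overlapping groups and a difference of -0.15 without KO 2. Pex6, an ATPase that pulls the receptors out of the membrane, gave 11.4 and 7.57 FPKM in WT against 11.3 and 24.6 FPKM in KO (0.78, SE 0.45). KO 2 alone was high for Pex6, and without that library the difference was 0.26. Pex26, which anchors the ATPase to the membrane, was listed at 0.148 and 0.181 FPKM in WT against 0.635 and 0.228 FPKM in KO, below the level tested.

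Of the 3 genes that insert proteins into the peroxisomal membrane, 1 had groups that did not overlap. Pex3, the membrane anchor for incoming membrane proteins, gave 14.4 and 10.5 FPKM in WT against 10.5 and 8.02 FPKM in KO (-0.39, SE 0.32). WT 2 and KO 1 differed for Pex3 only in the second decimal (10.495 against 10.455 FPKM), so the groups were apart by next to nothing, and the difference lay between -0.60 (without WT 2) and -0.18 (without WT 1). Pex19, the carrier of those membrane proteins, gave 23.1 and 22.8 FPKM in WT against 22.9 and 24.9 FPKM in KO (0.05, SE 0.22). Pex16, which works with Pex3, gave 11.9 and 7.15 FPKM in WT against 11.0 and 7.50 FPKM in KO (-0.02, SE 0.38). Opposite-strand genes share 5.3% of the exon bases of Pex3 (Adat2) and 7.2% of those of Pex16 (Large2). Pex11a, of the family that elongates peroxisomes before they divide, gave 1.77 and 1.01 FPKM in WT against 3.64 and 1.82 FPKM in KO (0.61, SE 0.44). Both KO libraries lay above both WT libraries for Pex11a, but WT 1 and KO 2 were close to each other. The difference of Pex11a was 0.26 without KO 1 and 0.97 without KO 2.

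The 3 members of plasmalogen synthesis stood at unequal levels in all 4 libraries, with Gnpat far above Agps and Far1. Gnpat, the acyltransferase that starts the pathway, gave 46.1 and 44.0 FPKM in WT against 64.8 and 47.2 FPKM in KO (0.29, SE 0.23). Both KO libraries were above both WT libraries, but KO 1 stood apart and the value without it was 0.07. Agps, which replaces the acyl chain with an alkyl chain and so makes the ether bond, gave 3.83 and 2.50 FPKM in WT against 5.78 and 2.50 FPKM in KO (0.24, SE 0.47). Far1, the reductase that supplies the fatty alcohol for that step, gave 2.77 and 2.58 FPKM in WT against 3.68 and 2.18 FPKM in KO (0.07, SE 0.38). Groups overlapped for Agps and Far1, and without KO 1 both values were negative (-0.23 and -0.21). Gnpat was 11.2 to 18.9 times as high as Agps and 16.7 to 21.7 times as high as Far1 within a library. Tmem189, which encodes the desaturase that turns the ether lipid into a plasmalogen, stood with Gnpat, at 87.1 and 44.3 FPKM in WT against 66.0 and 51.3 FPKM in KO (-0.09, SE 0.37). In the GENCODE annotation of GRCm38, Gnpat lies at chr8:124863033-124890057 on the plus strand and Agps at chr2:75832177-75931350 on the plus strand. Of exon bases of Gnpat, 7.8% are shared with a same-strand transcript, Gm16163.

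Entry and activation of fatty acids rested on one of the 3 genes measured. Abcd3, a transporter of branched-chain acyl groups, gave 32.5 and 24.4 FPKM in WT against 28.3 and 32.5 FPKM in KO (0.10, SE 0.25), with overlapping groups. Abcd2, a transporter of very long-chain acyl groups, was listed at 0.004 and 0 FPKM in WT against 0.414 and 0 FPKM in KO. Slc27a2, a very long-chain acyl-CoA synthetase, was listed at 0 and 0.02 FPKM in WT against 0.044 and 0 FPKM in KO. Whether a value of 0 in this table is absence or a failed estimate cannot be told from the values. Ndrg1, which oligodendrocytes normally express, was also listed at 0 in all 4 libraries.

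In beta-oxidation, which shortens the chain by cycles, the largest differences among the 4 tested members were those of Hsd17b4, higher in KO, and the thiolase Acaa1a, lower in KO, and neither passed. Hsd17b4, the bifunctional enzyme of the middle steps, gave 75.3 and 76.1 FPKM in WT against 109 and 102 FPKM in KO (0.47, SE 0.16; limma adjusted p = 0.859). The WT libraries were nearly equal, both KO libraries were clearly above them, and the value stayed between 0.43 and 0.52 when any one library was left out. Acaa1a, the thiolase of the last step, gave 74.0 and 39.9 FPKM in WT against 40.6 and 29.1 FPKM in KO (-0.65, SE 0.37). WT 1 stood far above the other 3 libraries, WT 2 lay just below KO 1, and without WT 1 the value was -0.21. Its close paralog Acaa1b, between which and Acaa1a reads could have been shared, gave 4.27 and 4.38 FPKM in WT against 3.04 and 1.71 FPKM in KO.

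Scp2, which encodes a thiolase for branched chains and a sterol carrier, gave 69.3 and 46.8 FPKM in WT against 55.0 and 45.5 FPKM in KO (-0.18, SE 0.27). Amacr, the racemase that prepares branched chains for oxidation, gave 3.67 and 3.18 FPKM in WT against 6.18 and 2.07 FPKM in KO (0.09, SE 0.51), the KO libraries lying on either side of WT. Acox3, an oxidase of branched chains, lay between 0.057 and 0.823 FPKM and was not tested.

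Phyh, the hydroxylase that begins alpha-oxidation of the branched phytanic acid, and Cat, the catalase that breaks down hydrogen peroxide, were both abundant and had groups that did not overlap, in opposite directions. Phyh gave 76.5 and 52.8 FPKM in WT against 48.4 and 40.0 FPKM in KO (-0.52, SE 0.26; limma adjusted p = 0.914). WT 1 was the highest library and WT 2 lay near KO 1. The value for Phyh without WT 1 was -0.26, and after rescaling to TPM (-0.43) its groups overlapped. Cat gave 78.8 and 74.8 FPKM in WT against 95.2 and 87.6 FPKM in KO (0.25, SE 0.16; limma adjusted p = 0.928). For Cat the 2 libraries of each genotype were close, and leaving out any one library gave 0.19 to 0.31. Idh1, an isocitrate dehydrogenase that supplies NADPH in cytosol and peroxisome, gave 91.4 and 85.3 FPKM in WT against 88.6 and 72.7 FPKM in KO (-0.14, SE 0.18), with overlapping groups.

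The membrane proteins Pxmp2 and Pxmp4 were low. Pxmp2, which forms a channel for small solutes, gave 2.13 and 5.92 FPKM in WT against 3.96 and 2.82 FPKM in KO (-0.10, SE 0.50), the WT libraries enclosing KO. An antisense gene, Gm15788, overlaps 10.8% of its exon bases. Pxmp4 gave 6.96 and 3.50 FPKM in WT against 2.55 and 3.35 FPKM in KO (-0.61, SE 0.42). Its groups did not overlap, but WT 1 was high and WT 2 lay beside KO 2, and without WT 1 the value was -0.20.

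The promoters of Cat and Phyh are shown because these were the abundant members with printable windows that lay apart in opposite directions, and because each holds the letters AGGTCA, the half-site of nuclear receptors such as the PPARs, known regulators of peroxisome genes. In GENCODE (GRCm38) the gene Cat spans chr2:103453849-103485160 and the gene Phyh chr2:4919019-4938730. Each window runs from 250 bases before to 50 bases after the start in RefSeq (GRCm38.p6), 5′ to 3′ on the gene's strand, with the half-site in capitals. That of Cat is chr2:103485104-103485403 on the minus strand, with AGGTCA beginning at base 47. That of Phyh is chr2:4918746-4919045 on the plus strand, with the reverse complement TGACCT beginning at base 287, past the start.
Cat: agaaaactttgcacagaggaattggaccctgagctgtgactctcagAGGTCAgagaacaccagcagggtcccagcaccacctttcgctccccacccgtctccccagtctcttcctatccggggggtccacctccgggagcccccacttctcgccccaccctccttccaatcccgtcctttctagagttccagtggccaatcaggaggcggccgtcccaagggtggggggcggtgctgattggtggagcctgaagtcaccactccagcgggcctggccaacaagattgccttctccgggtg
Phyh: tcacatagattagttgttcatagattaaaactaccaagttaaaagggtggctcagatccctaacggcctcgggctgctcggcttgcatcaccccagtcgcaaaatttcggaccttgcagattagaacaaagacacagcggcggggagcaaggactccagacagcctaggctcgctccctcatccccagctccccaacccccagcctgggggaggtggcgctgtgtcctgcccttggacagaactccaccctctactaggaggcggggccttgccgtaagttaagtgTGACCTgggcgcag
RefSeq windows were found for 22 of the 29 members, with 27 windows between them. A member was counted where any of its windows held the letters, while the shares over all are of single windows. The member counts and those shares thus differ in unit. AGGTCA was present, on either strand, in those of 4 members (Cat, Phyh, Scp2 and Slc27a2) and in 16.3% of all 32851 windows, and the direct repeat AGGTCANAGGTCA, which contains it, in those of 0 members and 0.0396% of all. The letters GGGCGG, the GC box, were present for 18 of the 22, against 35.7% of all windows. The windows of members held a median of 22 CG dinucleotides and all windows a median of 7. These matches describe letters only. The windows over all include genes that were not tested here, and no share or median over tested genes alone was computed. Neither the GC box nor the CG count can therefore be called particular to the members. Of the receptors, Ppara and Pparg were listed at no more than 0.065 FPKM in any library, and Ppard gave 0.217 and 0.645 FPKM in WT against 1.05 and 1.67 FPKM in KO (log2 difference 0.73, SE 0.40).

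For most members the 2 libraries of at least one genotype lay farther apart than the genotype means. The genotype difference exceeded the differences within both genotypes for 2 of 24 members, Hsd17b4 and Cat, and for 23.2% of all tested genes. Library 1 was above library 2 for 22 of the 24 in WT (91.7%) and for 18 in KO (75%), against 46.9% and 48.1% of all tested genes. It was above in both genotypes for 16 members and below in both for 0, where all tested genes gave 26.4% and 31.1%. The median of library 1 minus library 2 on the log2 scale was 0.413 in WT and 0.313 in KO over the members, and -0.038 and -0.019 over all tested genes. Pex10 had the largest difference in WT among members that were higher in library 1 of both genotypes (1.08 in WT and 0.84 in KO).

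**Figure D3:**
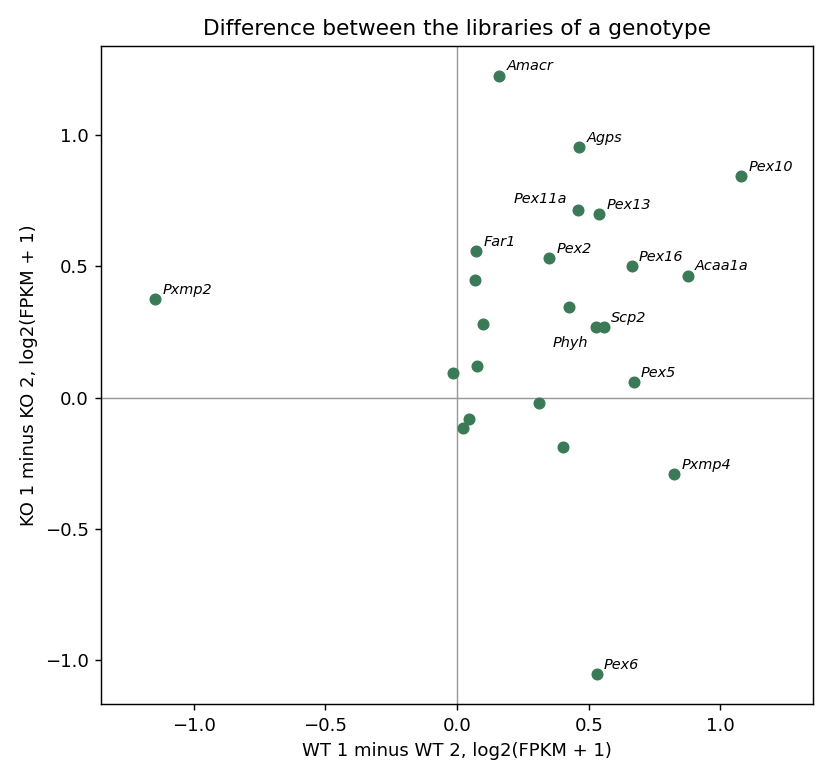
For the 24 tested genes, WT 1 minus WT 2 (horizontal) against KO 1 minus KO 2 (vertical), both on the log2(FPKM + 1) scale; each point is a gene and names mark differences over 0.5. In the upper right quadrant, where library 1 was higher in both genotypes, lie 16 genes, and the lower left quadrant is empty.

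Markers of other cell types also differed between library numbers. Those of endothelial and mural cells summed to 0.454 FPKM in WT 1 and 73.9 FPKM in WT 2, and to 7.38 and 66.1 FPKM in KO 1 and KO 2, with 5 of 8 higher in library 2 of both genotypes and Pecam1 listed at 0 in all libraries but KO 2 (0.002 FPKM). Microglia markers summed to 19.7 and 69.9 FPKM in WT and to 24.3 and 73.0 FPKM in KO (6 of 8 higher in library 2 of both). Neuron markers summed to 17.0 and 33.0 FPKM in WT and to 21.7 and 41.6 FPKM in KO (5 of 9). Of 8 astrocyte markers, 7 were higher in library 2 of both genotypes, although their sum was not in WT (320 and 279 FPKM in WT, 262 and 332 FPKM in KO). Myelinating markers went the other way, with 9 of 11 higher in library 1 of both genotypes. The part of these cells in the differences between libraries of one genotype was not tested, and the sums of endothelial, microglia and neuron markers in the genotypes overlapped.

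Other genes of the pathway, from lists of 73 symbols of which 72 were in the table and 50 were tested, gave 0 past the threshold by limma and 3 at an unadjusted p under 0.05. Both KO libraries were above both WT libraries for 7 of the 50 (14%) and below for 12 (24%), and the median log2 difference was -0.096. The background for these shares is that given above for all tested genes. Named below are up to 3 genes per list with the largest differences among those whose groups did not overlap.

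Of 18 tested genes of peroxisomal fatty acid oxidation, 1 lay above and 6 below, with a median of -0.23. Decr2, a reductase needed for unsaturated chains, gave 20.9 and 26.5 FPKM in WT against 9.18 and 8.37 FPKM in KO (-1.33, SE 0.27; limma adjusted p = 0.859), with the WT libraries both more than 2 times the KO libraries. The paralog Acaa1b, given above, differed by -0.69 (SE 0.38), and by -0.40 without KO 2.

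Of 13 tested genes of assembly and division, 2 lay above and 3 below (median -0.10). Pex11g, a relative of Pex11a, was at 1.02 and 2.27 FPKM in WT against a listed 0.216 and 0 FPKM in KO (-1.22, SE 0.43). Trim37, a ubiquitin ligase that stabilises Pex5, gave 0.883 and 1.53 FPKM in WT against 2.62 and 3.38 FPKM in KO (0.87, SE 0.38).

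Of 8 tested ether lipid genes, 2 lay above and 0 below (median -0.07). Chpt1, which adds the choline head group, gave 14.6 and 16.0 FPKM in WT against 22.8 and 20.3 FPKM in KO (0.47, SE 0.24). Tmem86b, which breaks down lysoplasmalogens, gave 0.817 and 0 FPKM in WT against 1.66 and 1.01 FPKM in KO (0.78, SE 0.47), and its difference was 0.35 without WT 2.

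Of 9 tested genes on the list of oxidases, antioxidant and small-molecule enzymes, 1 lay above and 3 below (median -0.14). Gstk1, a glutathione transferase, gave 23.5 and 20.4 FPKM in WT against 33.2 and 29.9 FPKM in KO (0.51, SE 0.23). Mpv17, on this list although it encodes a mitochondrial membrane protein and not an enzyme, gave 21.8 and 22.8 FPKM in WT. It gave 14.1 and 16.9 FPKM in KO (-0.50, SE 0.25). Prdx5, a peroxiredoxin also found in mitochondria, gave 302 and 266 FPKM in WT against 202 and 210 FPKM in KO (-0.46, SE 0.13; limma adjusted p = 0.859). Catalase and this peroxiredoxin, both of which remove peroxide, therefore lay on opposite sides of 0, neither passed, and the contrast between them was not tested. Of the 2 tested regulators, Ppard lay above and the groups overlapped for Rxrb.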

How the data were processed

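RNA was measured in 2 WT and 2 KO libraries. The authors deposited FPKM for each library. TopHat, with no version, and the mm10 build are named in the submitters' processing notes. The FPKM program, annotation, strand setting, filters and read totals are not stated in the labels, the file header or those notes. Reads of overlapping genes cannot be told apart without the strand setting.

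Values were tested as log2(FPKM + 1), with no further scaling, over the 10754 rows with at least 1 FPKM in at least 2 libraries. The test was limma 3.58.1 in R 4.3.3 (genotype, mean-variance trend, two-sided, Benjamini-Hochberg over all tested genes, threshold 0.05). A check on simulated data required only that the size of an added change was returned, so it says nothing here on the power of the test. SE is that of the log2 difference from the limma model. All 29 members are accounted for, and every tested member is given in each library; from each list of other pathway genes up to 3 with non-overlapping groups and the largest absolute difference are named. Some genes that this rule names are left out of the text. Members and lists were chosen with earlier results of these data known, and the promoters printed were chosen after values were seen. Summaries and figures used Python 3.11.15, pandas 2.3.3 and matplotlib 3.10.9. Exon overlaps and transcript lengths came from GENCODE M21 (GRCm38), and promoters from RefSeq. Alternatives were the pseudocount, the filter, 3 scalings, the variance model, a replicate block, leaving out each library, and, added after seeing the data, removal of trends with transcript length and level.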

Additional observations from a re-analysis of the deposited data

How the results depend on the processing

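No gene passed under any of the 13 alternatives (limma, 0 of all tested genes each time; smallest adjusted p between 0.413 and 1.0). For 11 of 24 members, among them Hsd17b4, Cat, Gnpat, Phyh and Acaa1a, the sign was the same in every alternative that tested them. The median over members was 0.17 after rescaling to TPM, 0.034 with length and level trends removed (added after seeing the data), and between -0.12 (without KO replicate 1) and 0.22 (without WT replicate 1) when a library was left out. Over all tested genes the median was 0.095 after rescaling to TPM and -0.01 with these trends removed. It was 0.031 without KO replicate 1 and -0.053 without WT replicate 1. The count of members with both KO libraries above both WT libraries was 9 of 24 under TPM and 3 of 24 under median centring. With the filter at 5 FPKM, where fewer genes were tested, it was 3 of 17. Of all tested genes, 21.7%, 15.4% and 14.4% lay above under these settings in turn. The count below was 0 under TPM, against 13.1% of all tested genes. With one library left out, which makes overlap rarer, the counts out of 24 were 6 to 13 above and 3 to 10 below. The shares of all tested genes were then 30.5% to 35.5% above and 32.7% to 36.6% below. Signs turned for 13 members when a library was left out, with log2 differences from lowest to highest of -0.28 to 0.005 for Idh1, -0.003 to 0.11 for Pex19, -0.23 to 0.72 for Agps, -0.35 to 0.31 for Pex16, -0.10 to 0.31 for Abcd3, -0.46 to 0.10 for Scp2, -0.019 to 0.064 for Pex14, -0.087 to 0.99 for Pex10, -0.67 to 0.48 for Pxmp2, -0.21 to 0.35 for Far1, -0.034 to 0.28 for Pex7, -0.03 to 0.67 for Pex13 and -0.52 to 0.70 for Amacr. Pex16 was at 0.075 under TPM and 0.065 with trends removed, Pex14 at -0.001 under median centring and -0.02 with trends removed, and Far1 at -0.073 with trends removed. The cause was not tested. With the replicate number as a block, 0 genes passed and 3 members had an unadjusted p under 0.05 (smallest adjusted p among members 0.463, Hsd17b4). The titles number the libraries but do not say that numbers mark animals or days, and across genes the differences of library 1 minus library 2 correlated at r = 0.289 between genotypes, where genes are not independent replicates. The read depth is unknown, which leaves the counting error of the low members without an interval.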
